A study of Mus musculus with 6 samples.

Results

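The cells described here are the natural killer (NK) cells and B cells among leukocytes sorted from the mouse hippocampus. Members were the barcodes that the deposited cell annotation calls NK cells, 39 of 3005, or B cells, 17 of 3005. They were treated as 2 separate cell types and set beside the 161 barcodes called T cells in the same libraries. Live CD45+ cells (CD45 is the surface protein shared by leukocytes) were sorted from hippocampi of perfused BC57BL/6 mice, with meninges and choroid plexus excluded, and sequenced with a 10x Genomics 5′ kit. The strain is spelled as in the sample labels. The sources used here give neither the sex and age of the mice nor how many were used for a library.

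The 6 groups had 1 library each, so no difference between groups was tested. Non-shocked mice received no footshock. In the acute paradigm 180 footshocks without escape were given at 0.3 mA, escape was then tested in 30 trials of 24 s, and mice were labelled non-helpless or helpless. Chronic-paradigm mice were retested weekly for 3 weeks after the same shocks. They were labelled non-helpless, non-recovered, or recovered if they had been helpless and had stopped being so. All 5 groups other than the non-shocked one received the shocks, and their labels describe later behaviour.

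NK cells are innate lymphocytes that kill target cells by releasing perforin and granzymes, and that weigh signals from activating receptors such as NKp46 against inhibitory receptors such as the mouse Ly49 family. B cells recognise antigen through a surface immunoglobulin coupled to the CD79A and CD79B signalling chains, and present peptides on MHC class II. During their development B cells join V, D and J gene segments with the RAG recombinase, the heavy chain first and a kappa or lambda light chain afterwards. Both cell types are rare in the parenchyma of the healthy brain, where microglia are the main leukocyte.

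The promoter windows of 3 genes are shown: Gzma, which had the highest ratio of NK to T barcodes, and Nkg7 and Vpreb3, markers whose windows held a searched motif. Each covers 250 bases before to 50 after the RefSeq start on GRCm38.p6, read 5′ to 3′ on the strand of the gene, with a motif in capitals where one was found. Gzma (granzyme A) lies on the minus strand at chr13:113100932-113101231, Nkg7 (a cytotoxic granule membrane protein) on the plus strand at chr7:43436888-43437187, and Vpreb3 (a protein of developing B cells) on the plus strand at chr10:75948050-75948349.
Gzma: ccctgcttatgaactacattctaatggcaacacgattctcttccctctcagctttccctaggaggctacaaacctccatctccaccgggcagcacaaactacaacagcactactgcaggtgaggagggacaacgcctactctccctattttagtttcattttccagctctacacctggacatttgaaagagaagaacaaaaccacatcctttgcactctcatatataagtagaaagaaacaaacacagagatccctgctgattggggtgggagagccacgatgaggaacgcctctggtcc
Nkg7: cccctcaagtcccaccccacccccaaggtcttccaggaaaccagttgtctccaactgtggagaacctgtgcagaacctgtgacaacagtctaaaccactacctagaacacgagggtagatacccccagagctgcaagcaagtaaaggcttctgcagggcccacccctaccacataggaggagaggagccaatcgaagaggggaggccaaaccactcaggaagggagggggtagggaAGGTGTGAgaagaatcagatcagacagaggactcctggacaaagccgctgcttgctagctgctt
Vpreb3: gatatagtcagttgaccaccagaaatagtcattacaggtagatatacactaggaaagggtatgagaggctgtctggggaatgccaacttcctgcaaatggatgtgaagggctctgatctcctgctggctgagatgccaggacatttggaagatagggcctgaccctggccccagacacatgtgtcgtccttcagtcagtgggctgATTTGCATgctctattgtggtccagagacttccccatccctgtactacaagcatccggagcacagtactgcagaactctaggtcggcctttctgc
Motifs searched on both strands were the octamer ATTTGCAT of OCT factors and the T-box site AGGTGTGA, neither of which contains the other, and the palindromic site of EBF factors, given by name alone. The Nkg7 window held a T-box match whose first base lies at position -14, and the Vpreb3 window held an octamer at position -45. The Gzma window held no match. Across 32851 RefSeq windows of this length the octamer was present in 1.74%, the T-box site in 1.28% and the EBF site in 0.904%. The marker genes with a window were counted by gene, not by window. The T-box site was found for 1 of 13 NK genes and the octamer for 1 of 8 B genes. The EBF site was found for 1 of 8 B genes (Cd22, an inhibitory receptor of B cells).

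The libraries held 121 to 687 cells and 438777 to 3260120 unique molecular identifiers (UMIs, the molecules counted). The deposited annotation also gives a batch number, and no source used here says what it stands for. The acute helpless library was batch 1, the acute non-helpless library batch 2, and the chronic libraries batch 3. Non-shocked cells lay in batch 2 (128 cells) and batch 3 (458 cells). Batch and group cannot be told apart for the acute helpless library. In batch 2, the non-shocked and acute non-helpless libraries had 1 NK barcode each. The median depth was 7463 UMIs for an NK barcode, 4670 for a B barcode, 13381 for a T barcode and 3987 for a microglial barcode. The deposited cluster numbers did not separate the types: NK barcodes lay in clusters 3 to 6 and B barcodes in clusters 4 to 6, all of which also held T and microglial barcodes. Of the 5 barcode sequences that occurred in more than 1 library, 0 belonged to an NK or B barcode.

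Except for the B cell marker Ms4a1, the markers chosen for each type were present in almost every member. Ncr1 (NKp46) had a UMI in 36 of 39 NK barcodes, Klrb1c (NK1.1) in 37 and Nkg7 in 37. Among T barcodes these counts were 12, 24 and 101 of 161. Thinned to 1000 UMIs per barcode, the share of barcodes with an Ncr1 UMI was 58.8% for NK and 2.79% for T, and that with a Klrb1c UMI was 51.5% for NK, 4.92% for T and 0.0163% for microglia. In B barcodes, Cd79a and Cd79b (the signalling chains of the B cell receptor) each had a UMI in 17 of 17, and Ms4a1 (CD20) in 12 of 17. Thinned, Cd79a was found in 96.6% of B, 0.647% of T and 0.330% of microglial barcodes. Cd79b was less restricted, with 87.4% of B and 5.36% of microglial barcodes after thinning, and 18.1% of microglial barcodes before it. The 17 B barcodes held 0 UMIs in the 16 NK markers, which allows up to 34.0 CPM (UMIs per 1000000 UMIs of the group).

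A pair of NK barcodes did not match the label. A chronic non-helpless NK barcode of 1237 UMIs held no UMI in any of the 16 NK markers, and 1.54% of its UMIs came from microglial markers. A recovered NK barcode of 19540 UMIs held 35 UMIs in 15 T cell markers, 5 of them Cd3e, and 0 of Ncr1 and Klrb1c, together with 78 Gzma UMIs. The other NK barcodes held at most 5 T marker UMIs.

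Microglial RNA split the NK barcodes into 2 sets and was near absent from the B barcodes. A set of 7 microglial markers, among them P2ry12, Tmem119, Fcrls, Siglech, Sparc and C1qa, made up 1.01% to 4.07% of the UMIs in 20 of 39 NK barcodes (51.3%, exact 95% interval 34.8% to 67.6%) and at most 0.0967% in the other 19. Barcodes at or above 0.5% are called mixed below. The counts were the same at 0.2% and 1%. In 0 of 17 B barcodes did the markers reach 0.5% (interval up to 19.5%), the highest value being 0.118%. In T barcodes they did in 117 of 161 (72.7%). Intervals of shares and counts cover counting error only.

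By library, 3 of 8 non-shocked, 1 of 1 acute non-helpless, 2 of 6 acute helpless, 3 of 5 chronic non-helpless, 0 of 3 non-recovered and 11 of 16 recovered NK barcodes were mixed. Mixed NK barcodes had a median of 11623.5 UMIs against 4259 for the rest, while the median number of UMIs in the 16 NK markers was 140.5 against 138. The microglial marker share of a mixed NK barcode was 21.0% to 83.1% of the median microglial barcode of its library. Scrublet, a doublet caller run on each library, called 56 of 3005 barcodes (1.86%), with 0 of 39 NK barcodes and 0 of 17 B barcodes among them. Whether mixed barcodes are pairs of cells was not tested.

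**Figure D1:**
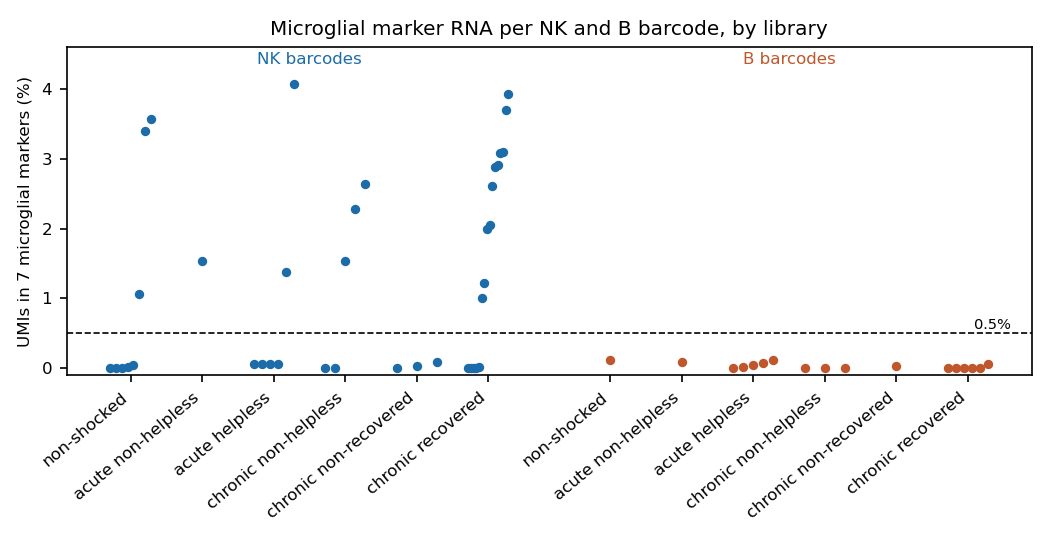
Percent of UMIs in the 7 microglial markers (vertical axis) for each NK barcode (blue, left) and B barcode (orange, right), grouped by library, with the 0.5% line dashed. The NK barcodes lie either at or above 1.01% or at or below 0.0967%, and every B barcode lies at or below 0.118%.

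NK barcodes were 1.30% of all cells and B barcodes 0.566%. The NK share was 1.37% of cells in the non-shocked library (8 of 586, exact interval 0.591% to 2.67%) and 0.171% in the acute non-helpless library (1 of 586, 0.00432% to 0.947%). It was 0.873% in the acute helpless library (6 of 687, 0.321% to 1.89%) and 0.914% in the chronic non-helpless library (5 of 547, 0.297% to 2.12%). The non-recovered library gave 2.48% (3 of 121, 0.514% to 7.07%) and the recovered library 3.35% (16 of 478, 1.93% to 5.38%). The recovered share was the highest, and its interval overlapped all but those of the acute libraries. These intervals cover counting error within 1 library and not the spread between mice, so they are no test between groups.

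Without the mixed barcodes the recovered library no longer stood highest. Its NK share was then 1.05% (5 of 478, 0.340% to 2.42%), beside 0.853% in the non-shocked, 0.582% in the acute helpless, 0.366% in the chronic non-helpless and 2.48% for non-recovered mice. The acute non-helpless library had 0 of 586, which allows a share of up to 0.512% (3 counts of the total; exact interval up to 0.628%). Within the non-shocked library, NK barcodes were 0.781% of batch 2 cells and 1.53% of batch 3 cells.

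B barcodes numbered 1 of 586 in both the non-shocked and the acute non-helpless library (0.171%, 0.00432% to 0.947%), 5 of 687 in the acute helpless library (0.728%, 0.237% to 1.69%) and 3 of 547 in the chronic non-helpless library (0.548%, 0.113% to 1.59%). The non-recovered library had 1 of 121 (0.826%, 0.0209% to 4.52%) and the recovered library 6 of 478 (1.26%, 0.462% to 2.71%). All 6 intervals overlapped, and they too cover counting error only. As shares of the 217 NK, B and T barcodes together, NK barcodes were 17.97% and B barcodes 7.83%. A share of sorted cells does not separate a change in these cells from a change in the others.

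**Figure D2:**
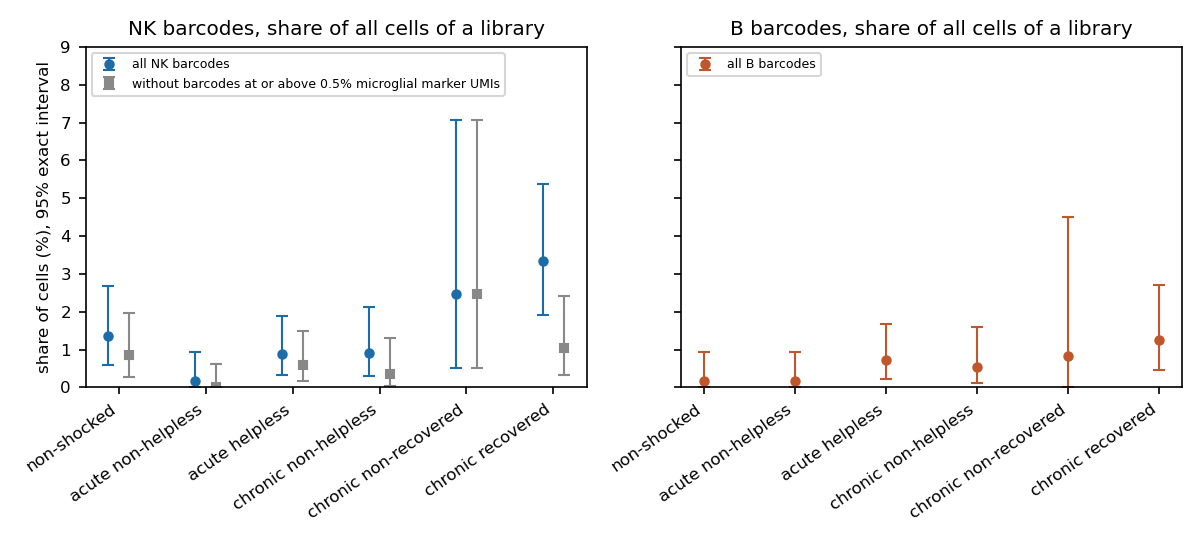
Share of all cells of a library (percent, vertical axis) that were NK barcodes (left) or B barcodes (right), for the 6 libraries, with exact 95% intervals. Grey squares leave out the mixed NK barcodes, which lowers the recovered library from 3.35% to 1.05%.

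The NK barcodes were set against T barcodes by summed UMIs per library and type. Ratios were stratified by library (Mantel-Haenszel), and the interval assumes 1 common ratio over libraries. How the deposited types were made is not described, and the same genes may have been used. These ratios are therefore descriptions with no test. Genes with at least 30 UMIs and 50 CPM in the higher type were compared, and "higher" or "lower" means at least 2-fold. T barcodes held 2224283 UMIs against 311596 in NK barcodes and 88241 in B barcodes, so a gene passed this minimum more easily by its level in T barcodes. Of 2951 genes, 148 (5.02%) were higher in NK barcodes and 231 (7.83%) lower; 160 of the lower genes were at a higher level still in microglia.

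Gzma had the highest ratio of NK to T barcodes among the genes compared. It summed to 425 UMIs in the non-shocked, 75 in the acute non-helpless, 326 in the acute helpless, 216 in the chronic non-helpless, 53 in the non-recovered and 899 in the library of recovered mice. Those are 7333, 9082, 7633, 6921, 5553 and 5552 CPM, while the T barcodes of all libraries together held 6 Gzma UMIs. Every library was high, and the NK to T ratio was 2150-fold (1089 to 6480). Per barcode, Gzma ranged from 0 to 106 UMIs with a median of 50, and 38 of 39 NK barcodes held it, compared with 3 of 161 T and 5 of 2721 microglial barcodes.

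Prf1 (perforin, which opens the target membrane) summed to 223 UMIs in NK and 28 in T barcodes, 55.4-fold higher (37.2 to 85.5), and was found in 34 of 39 NK barcodes. Gzmb (granzyme B) was 13.5-fold higher (10.2 to 17.0). Nkg7 was 7.51-fold higher (6.82 to 8.36), at 2657, 2422, 2623, 3428, 3667 and 2285 CPM over the 6 libraries in the order used above. Of the 18 genes of the cytotoxic list 11 were compared, 8 were higher and 0 lower, with a median log2 ratio of 2.48 against -0.16 over all 2951 genes. Serpinb9b, a serpin of the granzyme inhibitor family, had 41 UMIs in NK and 0 in T barcodes, at least 97.6-fold higher. Cma1, a chymase that marks mature mouse NK cells, had 37 and 0 UMIs, at least 88.0-fold higher.

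Receptor genes followed. Ncr1 summed to 75, 6, 32, 53, 14 and 111 UMIs over the 6 libraries in the same order, against 59 in all T barcodes, and was 31.5-fold higher (26.3 to 47.3). Klrb1c was 14.98-fold higher (13.1 to 22.5), Klre1 26.9-fold, Klri2 28.9-fold, Klrb1a 27.1-fold and Klrk1 (NKG2D) 9.50-fold. Of the activating receptor list 17 genes were compared, 12 were higher and 0 lower, with a median log2 ratio of 3.03. In the inhibitory and Ly49 list 8 of 9 were higher and 0 lower, with a median of 4.54. Klra4 (Ly49D) had 151 UMIs against 7 (152-fold, 73.3 to 392), Klra8 (Ly49H) 149 against 5 (132-fold, 86.6 to 648) and Klra3 (Ly49C) 60 against 1 (244-fold, 72.3 to 16896). Klra4 and Klra8 encode activating members of this family. Reads of the near-identical Klra genes could have been split between them by the counting.

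Of 12 NK maturation genes compared 6 were higher and 2 lower, and of 10 transcription factors 4 were higher and 1 lower. S1pr5, the sphingosine phosphate receptor that lets mature NK cells leave tissue, had 59 UMIs against 1 (803-fold, 68.1 to 15942). Klrg1, a late maturation receptor, was 27.9-fold higher (12.4 to 57.4). The transcription factors Eomes and Tbx21 (T-bet), which direct NK maturation, were 26.0-fold (17.9 to 51.3) and 9.91-fold higher (7.11 to 14.2). They had a UMI in 28 and 29 of 39 NK barcodes. In the list for type 1 innate lymphoid cells and tissue residence 1 of 8 was higher, 2 were lower and 5 were within 2-fold. The higher gene was the chemokine gene Xcl1, described below, and the lower ones were Cxcr6 and Il7r. The residence chemokine receptor Cxcr6 had 2 UMIs in NK barcodes, the integrin gene Itga1 3 and the death ligand gene Tnfsf10 2. No ratios to T barcodes are given for Itga1 and Tnfsf10. Il7r, the interleukin-7 receptor chain, had 11 UMIs in 6 NK barcodes against 423 in T barcodes, a ratio of 0.18 (0.0913 to 0.334).

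Chemokine and cytokine receptor genes moved in both directions. Ccl5 was 7.25-fold higher in NK barcodes (6.72 to 7.51) and found in 38 of 39. Il2rb, the shared interleukin-2 and interleukin-15 receptor chain, was 5.61-fold higher (4.77 to 6.44) and Il12rb2, an interleukin-12 receptor chain, 8.28-fold. Il18rap, an interleukin-18 receptor chain, was 9.71-fold higher. Of 15 cytokine receptor and signalling genes 7 were higher and 2 lower. The chemokine Ccl4 summed to 297 UMIs, of which 196 came from 1 mixed chronic non-helpless barcode, and its ratio of 4.90 turned to a log2 ratio of -1.33 without mixed barcodes. Xcl1 (lymphotactin), 3.16-fold higher with all barcodes, had a log2 ratio of -0.19 without them.

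The T cell receptor complex was lower, as the type labels imply, with 8 of 11 genes lower and 0 higher (median log2 ratio -2.64). Cd3e summed to 5 UMIs in NK barcodes, all in the barcode with T markers, against 845 in T barcodes. MHC class II presentation genes were lower in 4 of 6 and interferon response genes in 3 of 6. Cd74, the class II chaperone, had 6 UMIs against 1051, of which 308 were in 1 T barcode and 253 in another. Without mixed barcodes Cd74 had 0 UMIs against 16 and H2-Aa 0 against 3, too few to be compared. Some of the largest ratios on the T side rested on few barcodes. Prss34, a basophil and mast cell protease, had 0 UMIs in NK barcodes and 1630 in T barcodes, of which 992 were in 1 of the 5 T barcodes that held it. Ttr (transthyretin) had 2 UMIs against 2553, of which 2226 were in 1 T barcode.

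The NK profile was also present without mixed barcodes, in 19 NK against 44 T barcodes. Of 907 genes then compared 81 (8.93%) were higher and 172 (19%) lower. Gzma had 936 UMIs against 0, at least 896-fold higher, Prf1 was 25.5-fold higher (14.4 to 56.2), Ncr1 11.8-fold (8.64 to 21.0), Klrb1c 8.53-fold and Nkg7 7.91-fold. The cytotoxic list had 6 of 7 higher and 0 lower, the activating list 8 of 9 and the Ly49 list 7 of 7. Of the tissue residence list 0 of 6 were higher and 5 were lower.

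**Figure D3:**
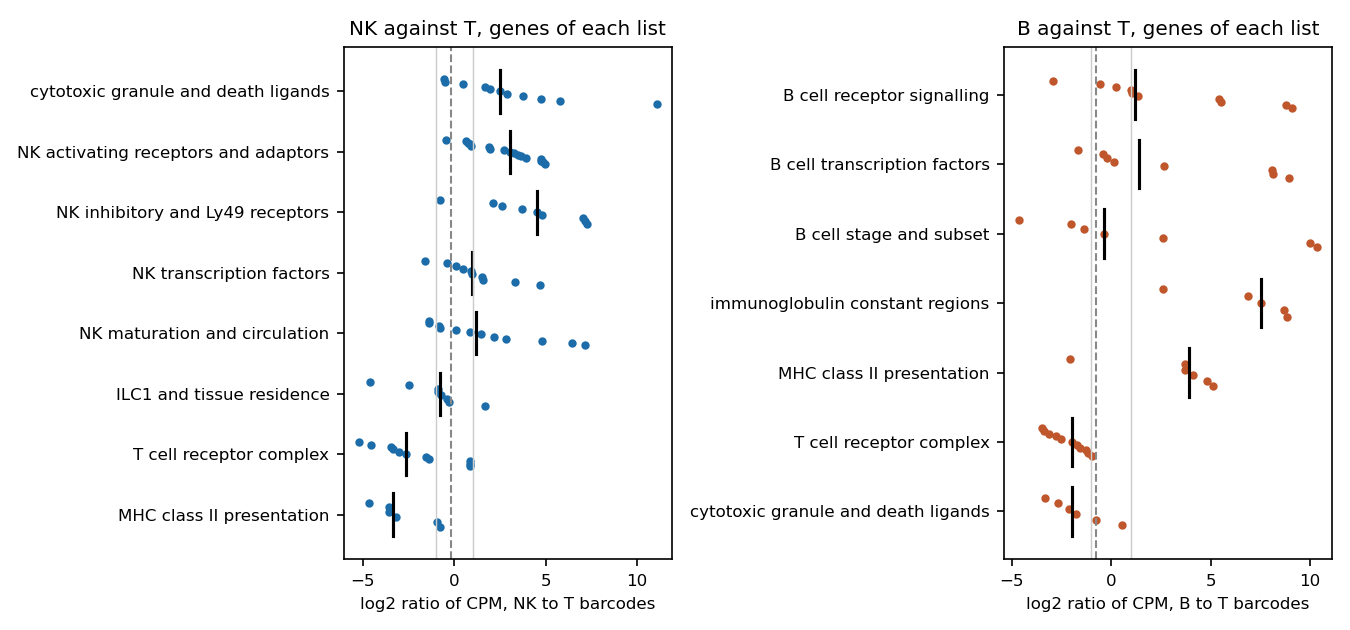
Log2 ratio of CPM for each compared gene of the listed groups, NK against T barcodes (left) and B against T barcodes (right), with the list median as a black bar. The dashed line is the median over all genes compared (-0.16 for NK, -0.74 for B), and the light lines mark 2-fold. Of the NK lists the Ly49 list has the highest median (4.54), and of the B lists the immunoglobulin constant regions do (7.53).

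NK barcodes differed from each other in the Ly49 genes they carried. Mouse Ly49 receptors are known to be expressed in varied combinations from cell to cell. Of the 11 Klra genes with a number in the files, an NK barcode held 0 to 6 with a median of 3, and 31 of 39 held at least 2. Klra8 was found in 28 barcodes, Klra4 in 20, Klra7 (Ly49G) in 16, Klra3 in 15, Klra9 (Ly49I) in 15 and Klra1 (Ly49A) in 5. The 39 barcodes showed 27 different combinations, the most frequent in 4 of them. Klra4 ranged from 0 to 29 UMIs and Klra8 from 0 to 14. With sums this low a 0 does not show that a barcode lacked the receptor.

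Among the same barcodes Ccl5 had a median of 68 UMIs (highest 199), Nkg7 a median of 21 (highest 51) and Ncr1 a median of 7 (highest 32). Gzma was present in all 19 unmixed and in 19 of 20 mixed barcodes, and Prf1 in 18 and 16. Klrg1 was present in 16 of 39, S1pr5 in 23 and Cd27, which marks less mature NK cells, in 13.

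**Figure D4:**
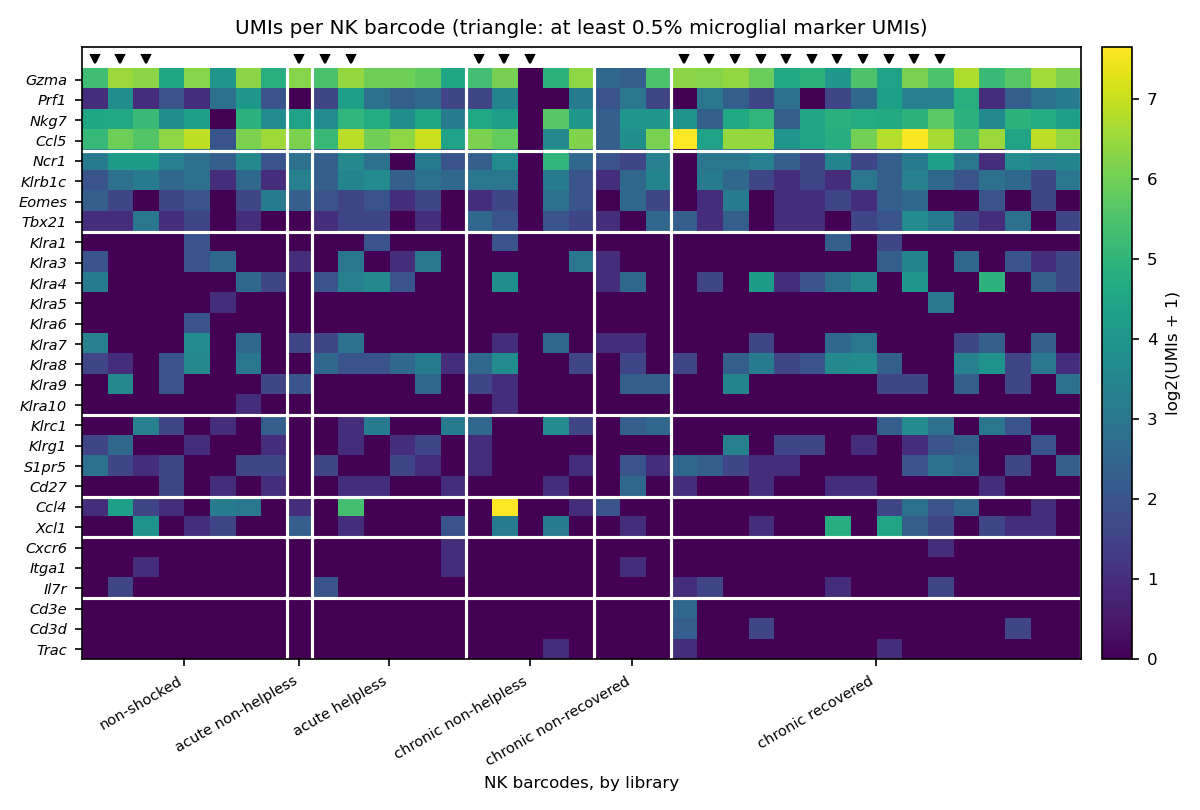
UMIs of marker, receptor, chemokine and T cell genes (rows, log2 of UMIs plus 1) in each of the 39 NK barcodes (columns, grouped by library), with triangles over mixed barcodes. Gzma and Ccl5 are each present in 38 barcodes, while each Klra gene is present in at most 28.

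NK barcodes of the 4 libraries with at least 5 of them were compared in 6 pairs, as summed UMIs with counting intervals and no test. The non-shocked library enters 3 of the pairs and the other libraries are also reused. The cytotoxic list had 0 genes higher in any pair, and its only lower member was Lamp1, a lysosomal membrane gene, at 0.35 of the non-shocked level in the chronic non-helpless and 0.29 in the recovered library. Lamp1 was lower in microglia too, at 1148 CPM in the non-shocked, 207 in the chronic non-helpless and 197 in the recovered library. The summed CPM of the 18 cytotoxic genes ranged from 11111 in the recovered library to 15621 in the acute non-helpless library.

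Recovered NK barcodes had more heat shock RNA than non-shocked ones. Of 1024 genes compared 136 (13.3%) were higher and 32 (3.12%) lower. In the heat shock list 6 of 9 were higher: Dnajb1 (40 against 2 UMIs, 7.16-fold, 1.86 to 61.2), Hsph1 (27 against 2, 4.83-fold, 1.21 to 41.9), Hspd1 (45 against 5, 3.22-fold), Dnaja1 (2.77-fold), Hsp90aa1 (2.12-fold) and Hspa8 (2.02-fold). The whole list stood at 3865 CPM in non-shocked and 7399 CPM in recovered NK barcodes, and at 2993 and 7795 CPM without mixed barcodes. The same direction was present in T barcodes, at 3505 and 6653 CPM, and in microglia, at 2779 and 5407 CPM. With non-shocked NK barcodes of batch 3 only, the level was 3792 CPM. Recovered NK barcodes were not set apart in this way from acute helpless ones. In that pair 1 of 9 heat shock genes was higher and 0 lower. The median log2 ratio was 0.39, against 0.40 over all genes compared. Acute helpless against non-shocked NK barcodes had 1 of 4 heat shock genes higher, with a median log2 ratio of 0.58. Of the 136 higher genes, 85 were at a higher level still in microglia, and 11 of 16 recovered against 3 of 8 non-shocked barcodes were mixed. The part of microglial RNA in this count was not tested. Without mixed barcodes fewer genes could be compared, and 16 of 202 were higher.

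With mixed barcodes included, acute helpless NK barcodes had more of 3 glucocorticoid response genes than non-shocked ones. Of 456 genes 42 (9.21%) were higher and 44 (9.65%) lower. Ddit4 summed to 30 UMIs against 2 (20.4-fold, 5.17 to 176), Sgk1 to 29 against 15 (2.62-fold) and Nfkbia to 20 against 10 (2.71-fold), so that 3 of 5 genes of the list were higher and 0 lower. Ddit4 is an inhibitor of mTOR signalling, Sgk1 a kinase and Nfkbia an inhibitor of NF-κB, and each is known to be induced by glucocorticoids. Ddit4 was also higher in T barcodes, at 914 against 65.4 CPM, and in microglia, at 1168 against 27.8 CPM. Of the NK barcodes, 2 of 6 acute helpless and 3 of 8 non-shocked were mixed. Without mixed barcodes the Ddit4 sums in NK were 6 UMIs in acute helpless and 1 in non-shocked. Most of the 30 acute helpless Ddit4 UMIs were thus in mixed barcodes. No such sums are given for Sgk1 and Nfkbia. The part of microglial RNA in these 3 ratios was not tested.

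The highest ratio in that pair belonged to Gclm, a subunit of the enzyme that makes glutathione precursors. Gclm was at 2482 CPM in acute helpless, 2785 in acute non-helpless and 34.5 in non-shocked NK barcodes, with 64.1 CPM in chronic non-helpless, 210 in non-recovered and 61.8 in recovered ones. The acute non-helpless value is that of 1 mixed barcode. The non-shocked, chronic non-helpless and non-recovered NK barcodes held 57959, 31209 and 9545 UMIs in all, so their Gclm levels rest on few UMIs. In T barcodes Gclm was at 2224 CPM in the acute helpless and 159 in the non-shocked library, and in microglia 1332 and 126. Within the non-shocked library it stood at 625 CPM in microglia of batch 2 and 74.8 in those of batch 3. In acute non-helpless microglia, also batch 2, it was 1674 CPM, and in batch 2 T barcodes it was 2760 CPM in the acute non-helpless and 708 in the non-shocked library. Batch and shock cannot be told apart for the acute helpless library.

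Chronic non-helpless NK barcodes had 9 of 399 genes (2.26%) higher and 54 (13.5%) lower than non-shocked ones. Rap1b (a small GTPase of integrin activation), Gnas (a G protein subunit), Jund and Limd2 were lower, at ratios of 0.13, 0.23, 0.22 and 0.21, and all 4 were lower in T barcodes and microglia of that library too. Cd7, an NK and T cell surface receptor at most 1.60 CPM in microglia, was at 192 against 914 CPM (0.21, 0.0738 to 0.489). In recovered NK barcodes Cd7 was at 0.33 of the non-shocked level (0.220 to 0.497) and Klra7 at 0.33 (0.182 to 0.599), while Klra4 was 2.17-fold higher (1.25 to 4.04). The Klra4 sums were 91 UMIs with 29 in 1 barcode, and 15 UMIs with 8 in 1 barcode.

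Against acute helpless NK barcodes, the chronic non-helpless ones had 19 of 332 genes (5.72%) higher and 53 (16%) lower, and the recovered ones 197 of 1018 (19.4%) higher and 46 (4.52%) lower. Of the 197, 117 were at a higher level still in microglia, beside 11 of 16 recovered and 2 of 6 acute helpless barcodes that were mixed. Without mixed barcodes that pair had 216 genes to compare, with 13 higher and 24 lower. Gclm, Wdr89 and Rap1b were among the lowest ratios in the first pair and moved alike in T barcodes and microglia. Klrb1c was at 0.43 and Klre1 at 0.45 in the recovered library. NK markers made up a median of 1.27% of UMIs in mixed and 2.66% in unmixed NK barcodes. The part of mixing in the lower receptor ratios of recovered barcodes was not tested. Against chronic non-helpless NK barcodes, the recovered ones had 91 of 910 genes (10%) higher and 11 (1.21%) lower. Of the 91, 52 were at a higher level still in microglia, and without mixed barcodes 17 of 179 genes compared were higher. Ncr1 was at 0.40 (0.289 to 0.571), with 32 of the 53 chronic non-helpless UMIs in 1 barcode, and Klre1 at 0.30. Heat shock genes were higher there in 5 of 9.

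B barcodes carried the B cell receptor programme. Of 2346 genes compared with T barcodes 122 (5.2%) were higher and 851 (36.3%) lower; 709 of the lower genes were at a higher level still in microglia, beside 117 of 161 mixed T barcodes and 0 of 17 mixed B barcodes. Cd79a summed to 22, 61, 113, 55, 17 and 94 UMIs over the 6 libraries in the order used above, against 13 in all T barcodes. It was high in each library and 442-fold higher overall (385 to 1271). Of the 13 T UMIs, 10 were in 1 mixed acute helpless T barcode, which also held 3 of the 3 Ms4a1 and 8 of the 9 Ebf1 UMIs of T barcodes. Without the acute helpless library the log2 ratio of Cd79a was 11.15 in place of 8.79, and that of Ebf1 10.37 in place of 8.11. Cd79b had 211 UMIs against 113 (46.6-fold, 37.0 to 59.8) and Ms4a1 102 against 3 (481-fold, 296 to 4440). Ms4a1 was 0 in the non-recovered barcode and 6 UMIs in the 3 chronic non-helpless ones, and 15 to 33 in each of the other libraries.

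With immunoglobulin genes left out, the 12 largest ratios included those of Cd24a, Vpreb3, Ly6d, Fcrla, Spib, Ms4a1, Pou2af1, Cd79a, Ebf1, Mzb1 and Tnfrsf13c. Ly6d, a surface protein of B lineage progenitors onwards, had 324 UMIs against 4 (1659-fold, 774 to 7401), and Cd24a 156 against 1 (2217-fold, 735 to 165495). Ebf1, which with Pax5 fixes B cell identity, had 166 against 9 (277-fold, 260 to 1133). Spib and Pou2af1, a factor and a coactivator of B cell transcription, had 88 against 3 and 32 against 1 UMIs. Tnfrsf13c, the BAFF survival receptor, had 63 against 6. Of 10 receptor signalling genes 6 were higher and 1 lower, and of 8 transcription factors 4 were higher and 1 lower.

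MHC class II genes were higher in 5 of 6, with a median log2 ratio of 3.91 against -0.74 over all genes. Cd74 had 1141 UMIs in 17 B barcodes and 1051 in 161 T barcodes (27.8-fold; the libraries differed, so no common interval is given). H2-Aa was 17.2-fold higher (12.7 to 19.1), H2-Eb1 13.1-fold and H2-Ab1 12.98-fold. Immunoglobulin constant genes were higher in 5 of 5. Ighm (the heavy chain of IgM) had 120 UMIs against 494 and was 6.07-fold higher (4.98 to 7.53), and Igkc (the kappa constant region) 74 against 3. Klf2, a factor of lymphocyte quiescence and homing, was 6.21-fold higher (5.09 to 8.19) and Btg1, an antiproliferative gene, 2.94-fold (2.41 to 3.53). Both stayed above 2-fold without mixed barcodes, at 4.40-fold and 2.42-fold.

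T and NK genes were lower. Ccl5 had 0 UMIs in B and 2611 in T barcodes, at least 34.5-fold lower, and Nkg7 0 against 770, at least 10.2-fold lower. Id2, an inhibitor of B lineage factors that NK and T cells use, had 1 against 751. The T cell receptor complex was lower in 10 of 11 and higher in 0. Without mixed barcodes, 105 of 1033 genes (10.2%) were higher and 333 (32.2%) lower. All 9 receptor signalling genes and all 5 class II genes compared were then higher, and Cd74 was 178-fold higher (124 to 356).

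The 17 B barcodes were not alike. Cd74 was at 0 to 7 UMIs in 5 of them, the 3 chronic non-helpless, 1 recovered and the non-recovered barcode, and at 19 to 172 UMIs (median 93.5) in the other 12. The split was made after the values were seen. Cd79a did not follow it, at 16 to 21 UMIs in the first 5 and 8 to 61 in the rest. Depth was similar, with medians of 3565 and 4711 UMIs. Vpreb3, the precursor-stage gene shown above, was found in 5 of 5 low-Cd74 and 9 of 12 other barcodes. Il7r, the receptor of the precursor growth factor interleukin-7, was found in 4 of 5 and 1 of 12. Ms4a1 was found in 2 of 5 and 10 of 12, and Fcer2a (CD23), a receptor of mature follicular B cells, in 0 of 5 and 5 of 12.

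Rag1 or Rag2, the recombinase genes, had a UMI in 3 of the 5 low-Cd74 barcodes and in 1 of the other 12. The non-recovered barcode held 8 Rag1 and 1 Rag2 UMIs, chronic non-helpless barcode 2 held 3 and 2, recovered barcode 2 held 3 and 1, and recovered barcode 4, the other one with a UMI, held 0 and 1. All 4 of these also held Il7r. Among barcodes typed B, the low-Cd74 ones came only from chronic libraries. The 7 B barcodes of the other 3 libraries all held at least 36 Cd74 UMIs, but the non-shocked and acute non-helpless libraries had only 1 each. In the wider set under the other observations, 1 low-Cd74 barcode came from the acute helpless library.

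Antibody variable genes, which the 5′ kit reads, separated the barcodes further. All 17 B barcodes held heavy chain variable (Ighv) UMIs, from 2 to 118 with a median of 26, and the most abundant Ighv gene was one of 14, none leading in more than 2 barcodes. In 3 barcodes the heavy chain was present at 23 to 43 UMIs but kappa and lambda variable UMIs together were only 2 or 3. These were the non-recovered barcode and recovered barcodes 2 and 4. All 3 held a Rag1 or Rag2 UMI, Il7r and 14 to 30 Vpreb3 UMIs, and 0 held Ms4a1. The other 14 barcodes held 17 to 196 light chain variable UMIs, and 1 of them held a Rag UMI.

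Of these 14 barcodes, 11 had more kappa than lambda variable UMIs (16 to 195 kappa, at most 11 lambda). The other 3 had 62, 103 and 118 lambda variable UMIs and at most 1 kappa, and all 3 were the B barcodes of the chronic non-helpless library. The constant genes did not follow the variable genes: in the 11 kappa barcodes Igkc was at 0 to 22 UMIs and the lambda constant (Iglc) genes together at 1 to 42, with more Iglc than Igkc in 9 of them. The 3 lambda barcodes held 0 Igkc and 7 to 26 Iglc UMIs. Kappa is the more common light chain in mice. The 3 lambda barcodes led with different Ighv genes, at 26, 30 and 28 Ighv UMIs. Reads of similar Iglv genes may be split between them, so only sums are given. Class-switched heavy chain constant genes reached 7 UMIs in recovered barcode 1, which had 0 Ighm UMIs, and at most 1 in any other barcode.

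**Figure D5:**
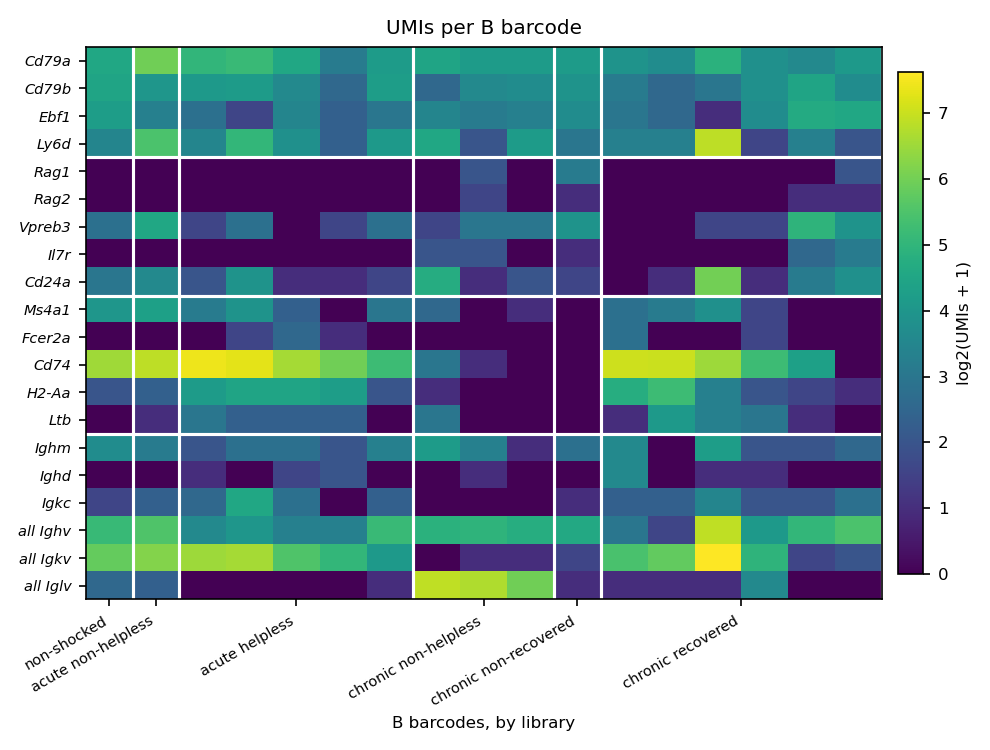
UMIs of B lineage, precursor, mature and immunoglobulin genes (rows, log2 of UMIs plus 1) in each of the 17 B barcodes (columns, grouped by library and ordered by Cd74). Cd79a and Ebf1 are present in all 17, Cd74 is at 0 to 7 UMIs in 5, and lambda variable UMIs are highest in the 3 chronic non-helpless barcodes.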

How the data were processed

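Each library's barcodes were deposited with raw counts and with a cell annotation by the authors, which gives the type, cluster and batch. Tools named in the submitters' processing notes are Seurat 2.3.4 and Cell Ranger 2.2.0, with build mm10. Neither those notes nor the labels describe the filters on cells or the way types were assigned. The raw UMI counts, as deposited, were summed per library and type. The deposited normalized tables were not used.

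Members, gene lists and comparisons were chosen with earlier results of these data known. Types were compared by Mantel-Haenszel ratios over libraries, with conditional exact intervals, for genes with at least 30 UMIs and 50 CPM in the higher type. NK barcodes were compared between libraries with at least 5 of them, for genes with at least 20 UMIs. To decide whether a gene was at least 2-fold apart, a type or library with under 3 UMIs was set to 3. Ratios are printed as a bound against 0 UMIs and as the ratio with its counting interval against 1 or 2. Depth per library was 438777 to 3260120 UMIs. With 1 library per group no p-value was computed.

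The named genes were the 12 highest and 12 lowest ratios between types and the 6 highest and 6 lowest between libraries. Left out were mitochondrial, ribosomal protein, haemoglobin, immunoglobulin, T cell receptor, unnamed and sex-linked genes, and genes higher still in microglia. Markers and list members at least 2-fold apart were added. Genes named by none of these, among them single-barcode genes such as Rag1, Cd27, Itga1 and Fcer2a, were chosen after their values were seen. Shares have exact Clopper-Pearson 95% intervals. Doublets were kept, and Scrublet (scanpy 1.11.5) calls were an alternative. Thinning used the expected share at 1000 UMIs and left out shallower barcodes. The alternatives covered mixed barcodes, weighting, scaling, filters, depth, doublets, symbols and single libraries. Ratios were also computed on simulated sums with counting error only. The simulation had no spread between barcodes, so it cannot test the ratios or intervals against such spread. Computation used Python 3.11.15, numpy 2.4.6, scipy 1.17.1 and pandas 2.3.3. A few members of the named genes and marker lists are not reported here.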

Additional observations from a re-analysis of the deposited data

How the results depend on the processing

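No paired analysis was possible because each group had 1 library. Of 54 shares recomputed under alternatives, 51 moved by less than their interval. Without mixed barcodes the NK share was 0 in the acute non-helpless and 1.05% in the recovered library. The B share of the acute helpless library was 1.89% when barcodes of any type with at least 5 UMIs in Cd79a, Cd79b and Ms4a1 and under 0.5% microglial UMIs were counted, an alternative chosen after seeing the data.

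Between types, 1450 of 1488 recomputed gene ratios for NK and 1647 of 1721 for B kept their direction and their side of 2-fold. Without mixed barcodes, which leaves fewer genes to compare, 81 genes were higher in NK and 333 lower in B barcodes. Log2 ratios then reversed for Ccl4 (-1.33) and Xcl1 (-0.19) in NK, and for Plac8 (-0.042), Zfp36 (0.36), Tgfb1 (0.25) and Cd81 (1.497) in B. With each barcode weighted equally Hspa1a reversed in NK (0.17). The gene filter set the counts: at 15 UMIs and 20 CPM, 288 genes were higher and 671 lower in NK and 254 higher in B, and at 60 UMIs and 100 CPM the counts were 80, 90 and 55. Leaving out each library in turn gave 108 to 147 higher and 224 to 436 lower genes in NK, and 68 to 118 higher and 403 to 833 lower in B. The lone values outside 1.5 times were those without the recovered library (436 lower in NK, 68 higher and 403 lower in B). With B barcodes of any type but T by the 3 markers, 222 genes were higher.

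Between libraries, NK counts moved without mixed barcodes, which again leaves fewer genes (154 to 216 a pair), and with equal weight for each barcode. Without mixed barcodes, higher and lower genes were 22 and 9 for acute helpless and 16 and 6 for recovered against non-shocked, 2 and 23 for chronic non-helpless and 13 and 24 for recovered against acute helpless. Lower genes were 12 for chronic non-helpless against non-shocked, and higher genes 17 for recovered against chronic non-helpless. With equal weight for each barcode, higher genes were 19 for chronic non-helpless and 220 for recovered against non-shocked, and the recovered against chronic non-helpless counts were 168 and 25. The cause of these shifts was not tested.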

Other observations

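B marker RNA was not confined to the barcodes typed as B cells. Counting barcodes of any type with at least 5 UMIs in Cd79a, Cd79b and Ms4a1 gave 37, of which 33 had under 0.5% microglial marker UMIs. Of the 33, 17 were typed B, 10 macrophage and 6 microglia. The 10 were among 25 macrophage-typed barcodes in all, and in the acute helpless library they were 7 of 9. The 5 deepest of these 7 held 26 to 70 UMIs in the 3 genes. By this count the acute helpless library had 13 B barcodes of 687 cells (1.89%, 1.01% to 3.21%), the chronic non-helpless library 7 of 547 (1.28%, 0.516% to 2.62%) and the recovered library 10 of 478 (2.09%, 1.01% to 3.81%). The non-shocked, acute non-helpless and non-recovered libraries had 1 each. The rule was chosen after the values were seen.

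In this wider set, 9 barcodes held at most 8 Cd74 UMIs and 24 at least 14. Vpreb3 was found in 9 of 9 and 16 of 24, Il7r in 7 of 9 and 1 of 24, Ms4a1 in 3 of 9 and 21 of 24, and Fcer2a in 0 of 9 and 10 of 24. Of the 9, 5 came from the chronic non-helpless, 2 from the recovered, 1 from the non-recovered and 1 from the acute helpless library. Barcodes with more lambda than kappa variable UMIs numbered 4 of 33, all in the chronic non-helpless library, which also had 2 with more kappa. Over the other libraries 18 had more kappa.

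Some barcodes typed as T cells held Ncr1. Of 161, 12 had a UMI and 6 had at least 5. Those 6 held at most 5 T marker UMIs each, and 0 UMIs of Cd3e and Gzma, while 1 of them held 3 Cd3g UMIs. They also held 61 Nkg7, 28 Klrb1c and 62 Xcl1 UMIs, 27 Cxcr6 UMIs in 5 of the 6, and 1 Eomes against 14 Tbx21 UMIs. The 39 NK-typed barcodes together held 2 Cxcr6 and 83 Eomes UMIs. Where these 6 barcodes belong was not tested.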
